A study of Mus musculus with 2 samples.

Results

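Hypothalamic-type neurons were taken here as nuclei that carried at least 2 UMIs, summed, of 7 genes used to mark hypothalamic neurons: Otp, Sim1, Fezf1, Nr5a1, Hmx2, Hmx3 and Pomc. A UMI (unique molecular identifier) stands for 1 captured RNA molecule. Each nucleus also had at least 500 detected genes, at most 5% mitochondrial UMIs, at least 1 UMI of the neuron genes Snap25, Syt1, Stmn2 and Tubb3, and at most 1 UMI of Lhx6, Tfap2d, Neurod2 and Neurod6, which mark other neurons. The rule chose 91 members among 13366 kept nuclei, 15 of 6686 in the library labelled wildtype and 76 of 6680 in the library labelled Cav1 knockout. Both libraries are single-nucleus RNA-seq of whole brain from fetal mice, 1 library per genotype, and caveolin 1 is the coat protein of caveolae, small pits of the plasma membrane. The fetal day, the strain, the knockout allele and the number of brains in each library are not given in the sources used here.

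The hypothalamus forms at the base of the forebrain and holds many small groups of neurons that control feeding, stress, growth, reproduction and body temperature, largely through peptides and hormones. Otp and Sim1 are transcription factors needed for neurons of the paraventricular and supraoptic nuclei and are also used in the neighbouring medial amygdala. Fezf1 and Nr5a1 mark the ventromedial nucleus, Hmx2 and Hmx3 the arcuate nucleus, and Pomc encodes the precursor of the melanocortins, which reduce feeding. These genes also act outside the hypothalamus (Hmx2 and Hmx3, for example, in the hindbrain and inner ear), so a nucleus chosen by them is hypothalamic by marker and not by position.

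The promoter windows of 3 homeobox and bHLH genes are printed to show the sequence at their starts: Sim1 and Otp, which together chose most nuclei, and Uncx, the homeobox gene that ranks first outside the rule by its ratio of members to other neuronal nuclei (by the ratio nearer 0 of the 2 libraries, among genes with at least 50 UMIs in members). Each window runs from 250 bases before to 50 bases after the annotated start, from RefSeq on GRCm38.p6: Sim1 at chr10:50895401-50895700, Otp at chr13:94875386-94875685 and Uncx at chr5:139543648-139543947, all on the plus strand. Capitals mark TAATTA, the core that many homeobox factors bind.
Sim1: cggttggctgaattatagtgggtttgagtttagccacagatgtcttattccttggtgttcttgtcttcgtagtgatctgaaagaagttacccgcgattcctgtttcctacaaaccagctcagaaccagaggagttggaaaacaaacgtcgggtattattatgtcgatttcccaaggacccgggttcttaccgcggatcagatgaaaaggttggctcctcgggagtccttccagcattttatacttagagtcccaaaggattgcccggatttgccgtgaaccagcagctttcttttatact
Otp: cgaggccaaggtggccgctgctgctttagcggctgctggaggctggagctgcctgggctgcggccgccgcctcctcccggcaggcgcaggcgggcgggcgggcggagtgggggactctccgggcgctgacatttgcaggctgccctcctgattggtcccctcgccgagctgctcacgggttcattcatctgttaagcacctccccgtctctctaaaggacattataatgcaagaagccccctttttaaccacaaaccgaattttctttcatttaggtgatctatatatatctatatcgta
Uncx: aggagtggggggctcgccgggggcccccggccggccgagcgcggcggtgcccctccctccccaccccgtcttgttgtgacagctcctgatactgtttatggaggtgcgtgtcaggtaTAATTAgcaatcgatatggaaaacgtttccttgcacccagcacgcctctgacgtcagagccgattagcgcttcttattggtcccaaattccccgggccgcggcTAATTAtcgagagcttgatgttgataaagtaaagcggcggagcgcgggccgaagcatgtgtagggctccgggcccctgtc
TAATTA was found 2 times in the Uncx window and in neither of the other windows, and 5.29% of 32851 windows of this length hold it on either strand. ACGTG, the core bound by Sim1 with its partner Arnt2, was in none of the 3 windows and in 19.6% of all windows, both strands being searched for each motif. A match is a description of letters and does not show binding. Of the 7 rule genes, 6 had a window in the table.

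The libraries were of similar depth. The median kept nucleus had 2134 UMIs (wildtype-labelled) or 2366 UMIs (knockout-labelled). Members were deeper, at a median of 3408 UMIs (range 2129 to 5498) and 4170 UMIs (range 928 to 17104), and a sum of 2 UMIs is reached more easily in a deep nucleus. In all, 15 wildtype-labelled members held 55851 UMIs and 76 knockout-labelled members 389639. The libraries shared 43 barcodes, 10 of them kept and 0 of them members. Cav1 itself did not separate the labels: it had 71 UMIs (4.13 CPM, counts scaled to a total of 1000000 UMIs) in kept wildtype-labelled nuclei and 80 UMIs (4.02 CPM) in kept knockout-labelled nuclei. In a knockout, 3′ reads outside a deleted part can still be counted, but whether that holds here was not tested. Cav2, the neighbour of Cav1, had 19 against 764 UMIs, and Gm15581, a long noncoding RNA on the opposite strand that overlaps both genes, had 62 against 1834 UMIs. With 1 library per genotype no test between genotypes is possible, and every interval below is a 95% interval that covers counting error only.

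The knockout-labelled library held more hypothalamic-type nuclei. They were 0.224% of kept nuclei in the wildtype-labelled library (exact binomial interval 0.126% to 0.370%) and 1.14% in the knockout-labelled library (0.897% to 1.42%), a ratio of 5.07. The intervals did not overlap. With every nucleus thinned to 1000 UMIs, 3 of 5840 nuclei (0.0514%) and 16 of 5569 nuclei (0.287%) met the rule, a ratio of 5.59. Thinning to 2000 UMIs left 6 of 3684 (0.163%) and 37 of 4011 (0.922%), a ratio of 5.66. The lower depth of 1000 UMIs left out 846 and 1111 shallower nuclei.

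Some other regional genes differed between the libraries as well, counted in all kept nuclei that were not members, and the sums of some lists did not. The rule's own genes are given only as a description. Of 5 rule genes with at least 20 UMIs there, 5 were higher in the knockout-labelled library, 3 of them with intervals above 0. Otp had a log2 ratio of 2.45 (1.65 to 3.34) and Hmx2 of 2.94 (1.46 to 4.90). Fezf1 stood at 0.34 (-0.48 to 1.17) and Pomc at 0.09 (-0.49 to 0.67). Nkx2-4, a factor of the ventral hypothalamus, went from 0 wildtype-labelled to 29 knockout-labelled UMIs, at least 8.51-fold higher against a floor of 3 UMIs. The hindbrain Hox genes summed to 10 and 611 UMIs, a log2 ratio of 5.75 (4.86 to 6.82). The hypothalamic patterning list summed to -0.04 (-0.11 to 0.04). Lhx2, an abundant factor at -0.24 (-0.34 to -0.15), supplied 1721 of its 2913 wildtype-labelled and 1651 of its 3227 knockout-labelled UMIs. Of 11 genes of that list with at least 20 UMIs, 9 were above 0, with a median of 0.31. Intervals lay above 0 for 4 of them, among them Nkx2-1 at 0.81 (0.48 to 1.15), and below 0 for 1. The paraventricular list summed to 0.00 (-0.04 to 0.04), with 7 of 10 genes above 0, and intervals above 0 for 2 and below 0 for 2. The midbrain excitatory list stood at 0.24 (0.21 to 0.27) and held genes of both directions, from En2, a gene of the midbrain and hindbrain border, at 1.57 (1.11 to 2.05) to Tfap2b at -0.31 (-0.41 to -0.20). The mammillary list stood at 0.32 (0.25 to 0.38) and the thalamic list at -0.03 (-0.06 to -0.01). The cortical excitatory marker list was lower, at -0.29 (-0.32 to -0.27). The part of regional make-up in the share of members was not tested, and genotype, brain and library cannot be told apart here.

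**Figure D1:**
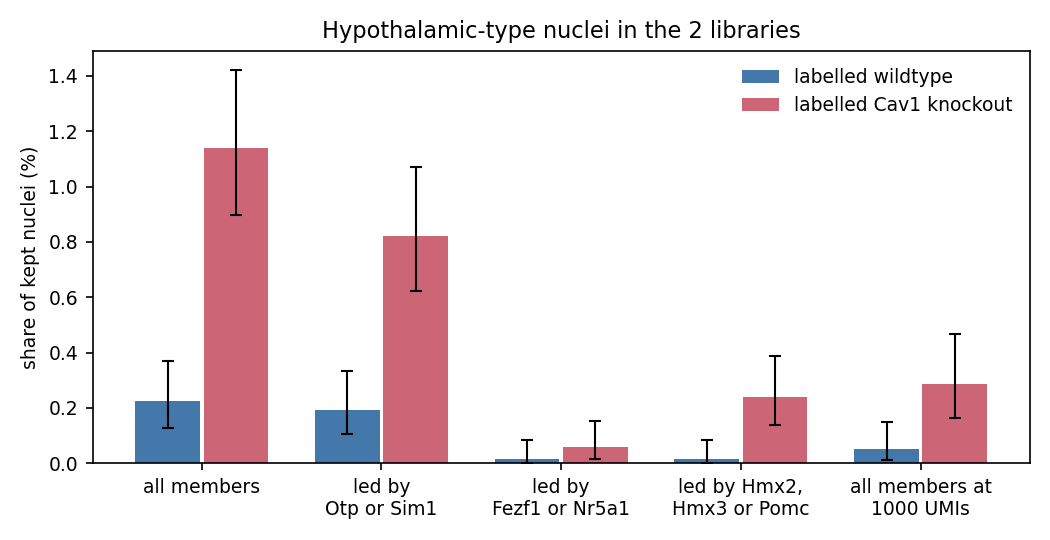
Share of kept nuclei (y axis, percent) that met the rule, for all members, for members grouped by their leading rule genes, and for all members after thinning to 1000 UMIs (x axis). Bars are the 2 libraries and black lines exact binomial 95% intervals; the bars of all members stand at 0.224% and 1.14%, and thinning lowers both while their ratio stays near 5.

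Sim1 supplied most of the UMIs that chose the members, which is a description of the rule and not a result. In the wildtype-labelled library Sim1 had 39 UMIs in 12 members, Otp 6 UMIs in 5, Nr5a1 2 UMIs in 1 and Hmx2 2 UMIs in 1. Fezf1, Hmx3 and Pomc had 0 UMIs in the 15 members. In the knockout-labelled library Sim1 had 191 UMIs in 51 members, Otp 37 in 20, Hmx2 27 in 13, Pomc 32 in 5, Fezf1 8 in 5, Nr5a1 2 in 2 and Hmx3 1 in 1. A single nucleus held 16 of the Pomc UMIs. Otp and Sim1 occurred together in 4 and 15 members, and 11 of 15 and 55 of 76 members carried only 1 of the 7 genes. The median member had 3 rule-gene UMIs in either library, with 5 wildtype-labelled and 34 knockout-labelled members at the minimum of 2.

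By the genes with most rule UMIs, 13 wildtype-labelled members (86.7%) and 55 knockout-labelled members (72.4%) were led by Otp or Sim1, the paraventricular pair. Members led by Hmx2, Hmx3 or Pomc, the arcuate genes, were 1 (6.67%, interval 0.169% to 31.9%) and 16 (21.1%, 12.5% to 31.9%). These intervals overlapped, so a difference in make-up was not detectable with 15 wildtype-labelled members. Fezf1 or Nr5a1 led 1 and 4 members, and 1 knockout-labelled nucleus had equal counts of Nr5a1 and Pomc.

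The hypothalamic name rests largely on the rule's own genes. Of 15 hypothalamic patterning factors, 6 had no UMI in any member, and the list summed to 125 and 144 CPM in members (wildtype-labelled, then knockout-labelled) against 167 and 163 CPM in other neuronal nuclei. Those other nuclei, 5791 and 5758 in number, met the filter and the neuron condition and had 0 rule-gene UMIs. Nkx2-1, the factor that specifies the ventral hypothalamus, was found in 1 of 15 and 10 of 76 members (6.67% and 13.2%), against 1.45% and 2.59% of the shallower other neuronal nuclei. At 1000 UMIs the shares were 6.67% and 1.33% against 0.760% and 1.14%, so the excess in the knockout-labelled library was not detectable at equal depth. The ventromedial list summed to 967 and 914 CPM in members against 1240 and 1040 CPM and the arcuate and dorsomedial list to 322 and 280 against 539 and 492 CPM. The brainstem inhibitory list, which includes Lhx1 and Lhx5, summed to 197 and 216 against 92.3 and 134 CPM. A hindbrain Hox UMI occurred in 0 of 15 and 5 of 76 members. Of 13 features of the pituitary list, 11 had no UMI in members.

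Against other neuronal nuclei, members had higher levels of Uncx, Vwc2l and the imprinted genes Peg3, Zdbf2 and Meg3, and lower levels of Rgs6, Tiam2, Zeb2 and Meis2. Of 1888 genes with at least 50 UMIs over the members, 22 were 2-fold or more higher in members in both libraries (1.17%). In the other direction 14 of 1848 genes (0.758%) were 2-fold or more lower in both, tested where at least 50 UMIs would be expected at the other neuronal level. The minimum of 50 UMIs in members favours genes that are high there. Of the 22 higher genes, 16 had intervals above 0 in both libraries and 17 kept a ratio of 2-fold or more in both at 1000 UMIs per nucleus.

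Uncx, a homeobox gene of the developing paraventricular region and of other brain regions, stood first among the genes with at least 50 UMIs. It had 6 UMIs in 5 wildtype-labelled members and 45 UMIs in 22 knockout-labelled members, 107 CPM (39.4 to 234) and 115 CPM (84.2 to 155). Other neuronal nuclei had 17.9 and 25.2 CPM, which gives log2 ratios of 2.59 (1.13 to 3.73) and 2.20 (1.72 to 2.64). Vwc2l, which encodes a secreted protein with a von Willebrand factor C domain, had 13 and 63 UMIs, 233 and 162 CPM against 32.2 and 40.8 CPM. Of the 10 paraventricular factors listed beside the rule genes, 2 had at least 50 UMIs, of which Uncx was called higher (1.17% of all genes), and 1 reached the expected minimum for a lower call and was not called. Uncx did not stand for its list. Over 5 genes of the list the median log2 ratio was -0.22 and -0.09, with 2 above 0 in both libraries and 3 below. The list summed to 555 and 565 CPM in members against 499 and 503 CPM in other neuronal nuclei. The bHLH partner Arnt2 was at nearly the same level in members and others, 197 and 167 CPM against 180 and 161 CPM.

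Snhg11, a noncoding RNA abundant in neurons, had 2490 CPM (2090 to 2940) and 2590 CPM (2430 to 2760) in members against 744 and 1160 CPM. Kcnip1, a potassium channel interacting protein, had 519 and 452 CPM against 157 and 175 CPM. Both differences exceeded counting error in either library. At 1000 UMIs per nucleus, however, the wildtype-labelled log2 ratio of Kcnip1 was 0.43, under 2-fold, as for Nalcn (-0.35) and Sgcz (0.91), while Sgsm1 (0.79) and Unc13c (0.38) were under 2-fold in the knockout-labelled library. The remaining genes of the 12 with the highest ratios were Gm28905, Sfta3-ps, Peg3, Kctd16 (a subunit of GABA-B receptors), Olfm3 (olfactomedin 3, a secreted protein), Sgsm1, Zdbf2 and Sgcz (zeta-sarcoglycan). Sfta3-ps lies 2227 bases from Nkx2-1. All of its 4 wildtype-labelled UMIs came from 1 nucleus, while its 46 knockout-labelled UMIs came from 22 members.

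The 8 genes with the lowest ratios included Rgs6, Tiam2, Ebf2, Zeb2, Epha3, Cntn2 and Plxna2. Zeb2, a factor of migrating forebrain neurons, had 89.5 and 246 CPM against 848 and 672 CPM in other neuronal nuclei. Meis2, a factor of striatal and other forebrain neurons, had 537 and 721 CPM against 1770 and 1640 CPM. The rule itself limits the cortical genes Neurod2 and Neurod6 in members and not in the other nuclei, so lower cortical genes are in part built into this comparison.

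**Figure D2:**
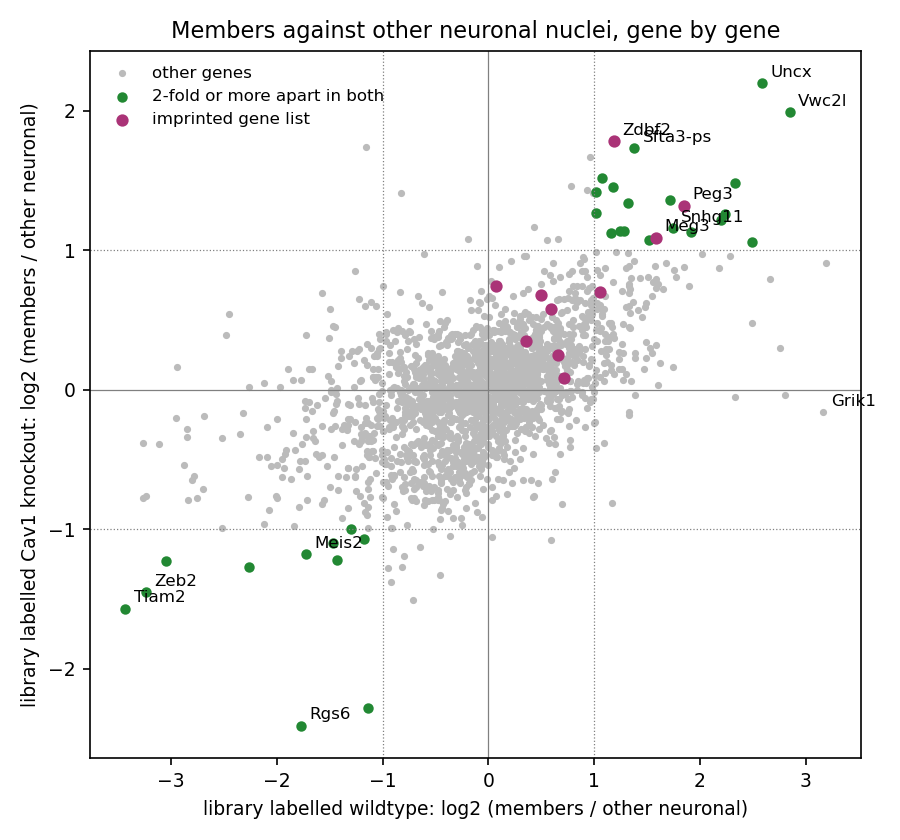
Each point is a gene, placed by its log2 ratio of members to other neuronal nuclei in the wildtype-labelled (x axis) and the knockout-labelled library (y axis), with dotted lines at 2-fold. Genes with 0 UMIs in a group (such as Ebf2 and Nin) have no point; genes 2-fold or more apart in both libraries are green, genes of the imprinted list purple; Uncx and Vwc2l stand at the upper right and Tiam2, Zeb2 and Rgs6 at the lower left.

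Imprinted genes, which are expressed from 1 parental copy and of which several act in hypothalamic neurons and feeding, were mostly at higher levels in members. Meg3, a noncoding RNA of the Dlk1-Dio3 imprinted region, had UMIs in 15 of 15 wildtype-labelled and 73 of 76 knockout-labelled members. Its level was 7720 CPM (7010 to 8480) and 7180 CPM (6920 to 7450) in members against 2580 and 3380 CPM in other neuronal nuclei. Per nucleus, the wildtype-labelled members ranged from 17.6 to 129 Meg3 UMIs per 10000 with a median of 79.3, and the knockout-labelled members from 0 to 209 with a median of 67.1. The medians of other neuronal nuclei were 8.56 and 11.3, exceeded by 15 of 15 and 69 of 76 members, though single other nuclei reached 238 and 268.

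Peg3, a paternally expressed zinc finger gene linked to maternal and feeding behaviour, had 15 UMIs in 7 and 96 UMIs in 48 members. Its levels were 269 CPM (150 to 443) and 246 CPM (200 to 301) against 74.6 and 98.4 CPM. Usp29, which lies beside Peg3 and is imprinted with it but was not on the list, was also called higher, at 680 and 570 CPM against 238 and 271 CPM. Zdbf2, a paternally expressed gene reported to act in hypothalamic growth control, had 5 UMIs in 3 and 69 UMIs in 36 members, 89.5 and 177 CPM against 39.3 and 51.5 CPM. Its wildtype-labelled log2 ratio of 1.19 had an interval of -0.44 to 2.42, so only the knockout-labelled difference exceeded counting error.

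Magel2 and Dlk1 fell just under the minimum of 50 UMIs and were not among the genes called. Magel2, a gene of the Prader-Willi region, had 6 UMIs in 4 wildtype-labelled members (107 CPM, 39.4 to 234) and 37 UMIs in 28 knockout-labelled members (95 CPM, 66.9 to 131). Other neuronal nuclei had 11.9 and 17.0 CPM, a log2 ratio of 3.18 (1.71 to 4.33) and 2.48 (1.94 to 2.97). Dlk1, a paternally expressed Notch-related protein, had 13 UMIs in 5 and 32 UMIs in 14 members, 233 and 82.1 CPM against 12.1 and 18.5 CPM. Rian, transcribed from the same region as Meg3, had 591 and 565 CPM against 285 and 348 CPM.

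Over the whole list of 18 imprinted genes, 10 had at least 50 UMIs, of which 3 (Peg3, Zdbf2 and Meg3) were called higher and 0 lower, beside the 1.17% of all genes called higher. Of the 14 genes with at least 20 UMIs, 13 were above the other neuronal level in both libraries and Cdkn1c, a growth inhibitor, was below it in both. The median log2 ratio of these 14 was 0.69 in either library. Over all genes it was -0.06 and 0.02, taken over 5408 genes, a wider set than the 4923 with at least 20 UMIs. Summed over all 18 genes, members had 13900 and 13000 CPM against 6310 and 7540 CPM. Without Meg3 the sums were 6140 and 5850 CPM against 3730 and 4150 CPM. Snhg14 and Ube3a overlap on opposite strands, so the split of their reads is uncertain.

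Around the limit of the rule, levels of some of these genes rose with the number of rule-gene UMIs and those of others did not, and the 2 libraries differed in this. The nuclei just outside it, with 1 rule-gene UMI and the other conditions met, numbered 72 (wildtype-labelled) and 185 (knockout-labelled). In the knockout-labelled library Meg3 had 3650, 5280, 6730 and 7520 CPM in nuclei with 0, 1, 2 and 3 or more rule-gene UMIs. Magel2 had 17.7, 66.4, 71.7 and 112 CPM, and Uncx 27, 44.3, 53.8 and 162 CPM, in the same order. The Magel2 intervals at 1, 2 and 3 or more overlapped (47.9 to 89.8, 37.1 to 125 and 72.8 to 166 CPM). Peg3 was highest at 2 UMIs, with 105, 190, 293 and 211 CPM, as was Dlk1, with 20, 63.3, 132 and 45 CPM. For both genes the intervals at 2 and at 3 or more overlapped (Peg3 217 to 387 and 155 to 281, Dlk1 82.4 to 199 and 21.6 to 82.7 CPM). In the wildtype-labelled library Magel2 had 13.3, 9.18, 0 and 151 CPM and Meg3 2830, 3460, 8750 and 7300 CPM, with 5 nuclei at 2 UMIs and 10 at 3 or more. Peg3 (80, 73.4, 186 and 302 CPM) and Dlk1 (13.3, 0, 62.1 and 302 CPM) were highest there at 3 or more. Deeper nuclei reach more rule-gene UMIs, and the part of depth in these steps was not tested.

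**Figure D3:**
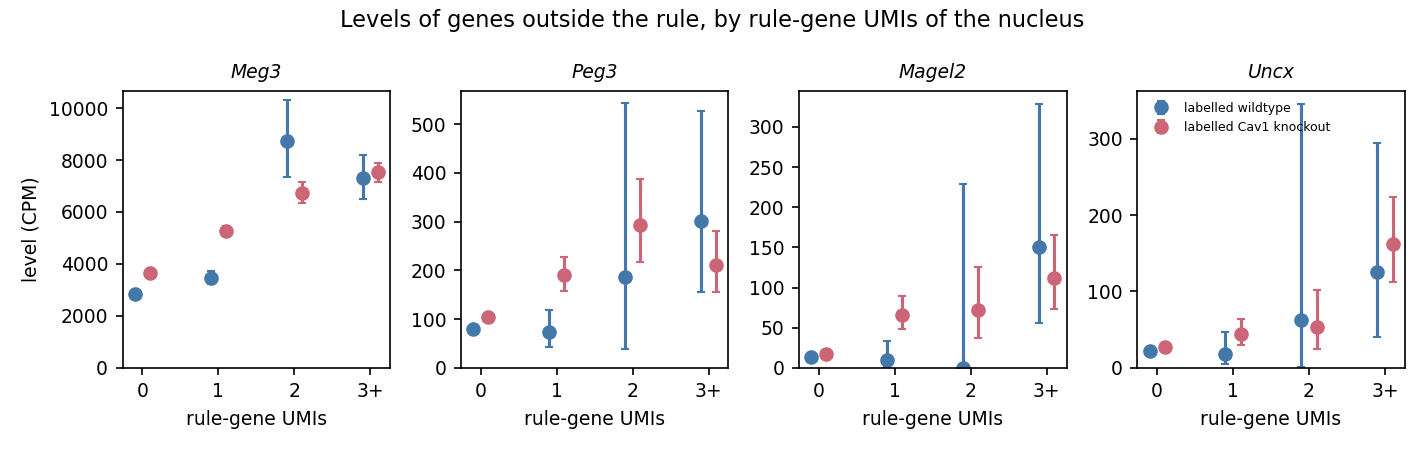
Level (y axis, CPM) of Meg3, Peg3, Magel2 and Uncx in neuronal nuclei that met the other conditions of the rule, by their number of rule-gene UMIs (x axis). Points are summed levels of each library with exact Poisson 95% intervals; members are the nuclei at 2 and at 3 or more, and nuclei at 0 have the lowest Meg3 levels of either library.

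Another 3 sets of neuronal nuclei that were also chosen by 2 or more UMIs of marker genes showed how far these differences depend on the comparison. They were cortical nuclei with Neurod2 and Neurod6 (1057 wildtype-labelled and 937 knockout-labelled), forebrain inhibitory nuclei with Dlx genes (558 and 587) and nuclei with Tcf7l2, a factor of the thalamus (626 and 567). Members were 2-fold or more higher in both libraries for 3.12% of genes against the cortical set, 2.97% against the Dlx set and 0.689% against the Tcf7l2 set. Of the 22 genes higher than in other neuronal nuclei, 20 were also higher than in the cortical set, 17 than in the Dlx set and 8 than in the Tcf7l2 set. In the other direction the shares of genes lower in members were 3.66%, 2.04% and 1.34%, and 12, 4 and 3 of the 14 lower genes were among them, Rgs6, Ebf2 and Gli3 being the 3 against the Tcf7l2 set. The 8 higher genes were Vwc2l, Olfm3, Sgsm1, Uncx, Peg3, Unc13c, Kcnip1 and Sfta3-ps.

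Meg3 was closest between members and the Tcf7l2 nuclei, with log2 ratios of 0.97 (0.83 to 1.11) and 0.81 (0.75 to 0.87), and was not called there. That set was also the nearest in depth, with medians of 2939 and 3365 UMIs. Magel2 remained far higher in members than in the Tcf7l2 nuclei, at log2 3.24 (1.66 to 4.57) and 3.33 (2.52 to 4.18). Pcsk2, a prohormone convertase, had 304 and 287 CPM in members against 132 and 145 CPM in other neuronal nuclei, and 312 and 228 CPM in the Tcf7l2 nuclei. Against the Tcf7l2 nuclei its log2 ratios were -0.04 (-0.83 to 0.65) and 0.34 (0.03 to 0.63), a small difference in the knockout-labelled library and none detectable in the other.

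**Figure D4:**
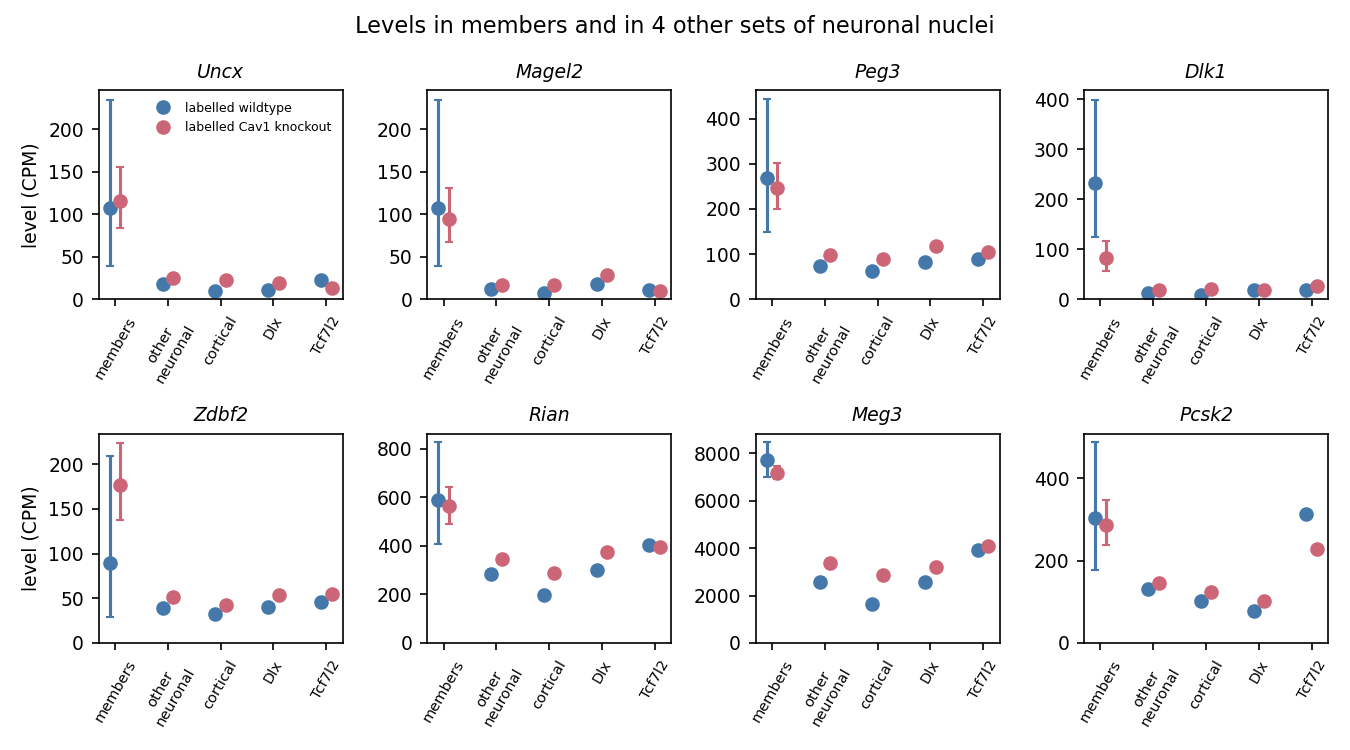
Level (y axis, CPM) of 8 genes in members and in other neuronal, cortical, Dlx and Tcf7l2 nuclei (x axis) of both libraries; bars on the members are exact Poisson 95% intervals. Uncx, Magel2, Peg3 and Dlk1 are higher in members than in every other set of the same library, while Pcsk2 is at 304 and 287 CPM in members and 312 and 228 CPM in the Tcf7l2 nuclei.

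Peptide genes were sparse in the members, while genes of their processing were well detected. Of 26 neuropeptide and hormone genes, 10 had no UMI in members, and 0 reached 50 UMIs. Agrp, whose peptide promotes feeding, had 1 and 24 UMIs, 17.9 and 61.6 CPM, beside 45.2 and 51.9 CPM in other neuronal nuclei, values inside the members' intervals of 0.453 to 99.8 and 39.5 to 91.6 CPM. Of 17 genes for prohormone processing and dense-core vesicles, 0 of 8 were called higher and 0 of 7 lower. Among all genes 1.17% and 0.758% were called, so so few genes would be likely to give 0. The median log2 ratio over 15 genes of this list was 0.19 and 0.28. Of the 15, 11 were above 0 in both libraries, as were 1653 of the 5408 genes compared over all. The list summed to 3530 and 3830 CPM in members against 2640 and 2850 CPM. Ptprn2, a vesicle membrane protein, had 931 CPM (695 to 1220) and 852 CPM (763 to 949) against 511 and 546 CPM, intervals that lay above the other neuronal level in both libraries.

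In the knockout-labelled library, members carried the glutamate transporter of the diencephalon more often than inhibitory nuclei did. The share with GABA genes was higher than its background, with intervals that overlapped. The 15 wildtype-labelled members were too few to show either at equal depth. Slc17a6, that transporter, had a UMI in 6 of 15 (40.0%) and 38 of 76 (50%) members, 197 and 195 CPM against 112 and 123 CPM. A UMI of Gad1, Gad2 or Slc32a1, which make or load GABA, was found in 2 of 15 (13.3%, 1.66% to 40.5%) and 28 of 76 (36.8%, 26.1% to 48.7%). As a background, 6.81% and 8.86% of the inhibitory Dlx nuclei (median 1975 and 2365 UMIs) had a Slc17a6 UMI, and 23.7% and 24.3% of the excitatory cortical nuclei (median 2756 and 3178 UMIs) had a UMI of a GABA gene. At 1000 UMIs per nucleus, Slc17a6 was found in 13.3% and 21.3% of members (intervals 1.66% to 40.5% and 12.7% to 32.3%) against 3.05% and 3.51% of Dlx nuclei. The GABA genes were found in 6.67% and 20.0% of members against 11.4% and 9.72% of cortical nuclei, so the wildtype-labelled share was at background. The knockout-labelled interval of 11.6% to 30.8% narrowly overlapped the cortical interval of 7.85% to 11.9%. Whether the libraries differ in the share with GABA genes was not detectable at 15 wildtype-labelled members. Of 17 transmitter genes, 2 reached 50 UMIs and 0 were called, beside 1.17% of all genes called higher and 0.758% called lower.

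Among the mammillary factors Lhx1 and Lhx5, which are also on the lists for brainstem inhibitory and Cajal-Retzius neurons, had higher levels than other neuronal nuclei. Lhx9, the third gene compared, had lower levels, 35.8 and 33.4 CPM against 73.3 and 74.4 CPM, on fewer than 20 UMIs in members. None reached 50 UMIs in members. Lhx1 had 89.5 CPM (29.1 to 209) and 100 CPM (71.2 to 137) against 29.5 and 45.3 CPM, so the wildtype-labelled interval includes the other level, and Lhx5 89.5 and 53.9 CPM against 15.1 and 18.5 CPM. Reln, the secreted protein that defines Cajal-Retzius neurons, was lower in members, at 71.6 and 195 CPM against 218 and 271 CPM. Gata2, Gata3 and Tal1, which define the brainstem inhibitory type, had 0 UMIs in wildtype-labelled and 2, 6 and 5 UMIs in knockout-labelled members.

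The levels of the knockout-labelled members differed by leading gene. In the 55 nuclei led by Otp or Sim1, Slc17a6 had 223 CPM (170 to 288) and Gad1 22.7 CPM (8.32 to 49.3). In the 16 led by Hmx2, Hmx3 or Pomc, Slc17a6 had 96.4 CPM (44.1 to 183) and Gad1 225 CPM (139 to 344). The GABA-synthesising enzyme Gad1 was thus higher in the latter group, detected in 3 of 55 and 9 of 16 nuclei. The Slc17a6 intervals overlapped, on 59 and 9 UMIs, so its difference was not detectable. Gad2 (117 against 332 CPM) and Dlx6os1, a noncoding RNA of the Dlx5 and Dlx6 locus (56.7 against 332 CPM), were also higher in the Hmx or Pomc group. So was Isl1, a factor of arcuate neurons (7.56 against 96.4 CPM), on 2 and 9 UMIs. Tbx3 had 3.78 CPM (0.0957 to 21.1) against 42.9 CPM (11.7 to 110), on 1 UMI and on 4 UMIs in 2 nuclei. Its intervals overlapped.

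Uncx and Lhx1 were found mostly in the Otp or Sim1 group, at 162 against 21.4 CPM and 132 against 10.7 CPM. Meg3 (7690 and 6590 CPM) and Magel2 (98.2 and 107 CPM) stood above the other neuronal level in both groups, with 7 of 16 nuclei of the Hmx or Pomc group holding Magel2. Dlk1 was higher in the Hmx or Pomc group, at 204 CPM (123 to 318) against 49.1 CPM (26.2 to 84.0). With 1 wildtype-labelled nucleus in the Hmx or Pomc group, these differences could not be compared in the other library.

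**Figure D5:**
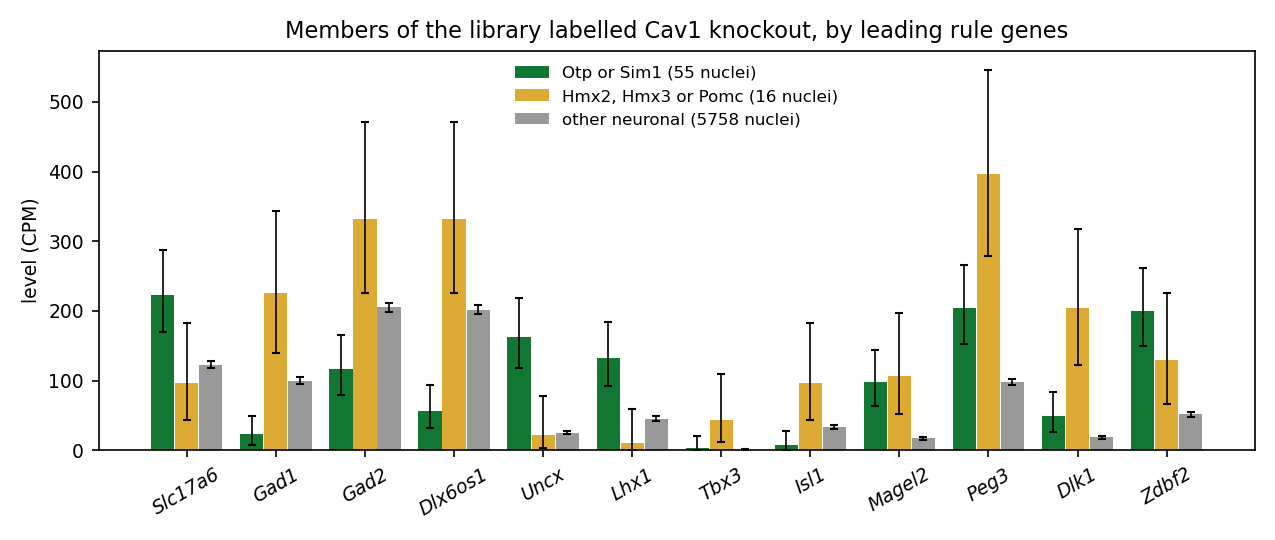
Level (y axis, CPM) of 12 genes (x axis) in knockout-labelled members led by Otp or Sim1, in those led by Hmx2, Hmx3 or Pomc, and in other neuronal nuclei of that library, with exact Poisson 95% intervals. Slc17a6, Uncx and Lhx1 are highest in the Otp or Sim1 group and Gad1, Gad2, Dlx6os1, Peg3 and Dlk1 in the Hmx or Pomc group. The Slc17a6 intervals of the member groups overlap.

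Between the genotypes, levels within members could be compared only coarsely, because the median tested gene had 11 UMIs in the wildtype-labelled members and 75 in the knockout-labelled members. Of 1888 genes, 142 were 2-fold or more higher (7.52%) and 48 were 2-fold or more lower (2.54%) in the knockout-labelled members. The minimum of 50 UMIs was set over the members of both libraries, most of whose UMIs are knockout-labelled. Genes such as Itgb1, with 1 and 61 UMIs, passed it through the library where they are high, so the excess of higher over lower genes is partly fixed by the filter. Of the genes past 2-fold, 111 in all had an interval that excluded 0. Among other neuronal nuclei, with far more UMIs, the shares were 0.777% and 0.236% of 17366 genes, and 176 genes past 2-fold had an interval that excluded 0. The middle of the distribution did not shift, with a median log2 ratio of 0.00 in members, and 5th and 95th percentiles of -0.80 and 1.20.

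Nrxn3, a presynaptic adhesion protein, had the best counted difference: 50 UMIs in 12 wildtype-labelled members and 990 UMIs in 54 knockout-labelled members. Its levels were 895 and 2540 CPM, a log2 ratio of 1.5 (1.09 to 1.95), while in other neuronal nuclei the ratio was 0.03. Among members led by Otp or Sim1 it was 0.97, under 2-fold. Nrxn3 is high in the inhibitory Dlx nuclei (11200 and 10200 CPM, against 1910 and 2070 CPM in the cortical nuclei), and Dlx6os1, a noncoding RNA of the Dlx locus, had 0 UMIs in wildtype-labelled members (up to 66 CPM) and 49 UMIs in knockout-labelled members (126 CPM, 93 to 166). Dlx1 did not share that direction, with 3 UMIs (53.7 CPM, 11.1 to 157) and 14 UMIs (35.9 CPM, 19.6 to 60.3), intervals that overlapped. The part of inhibitory nuclei in this difference was not tested. Cdh18, a cadherin, had 53.7 and 287 CPM (2.42, 0.84 to 4.72) and also stood at 0.77 in other neuronal nuclei. Pcdh15, a protocadherin, had 412 and 975 CPM (1.24, 0.64 to 1.92), and fell under 2-fold, to 0.75, among members with at least 3 rule-gene UMIs. The other genes with the highest ratios by their lower bounds were 4930555F03Rik, Gm3764, Htr2c, Nebl and Itgb1. Of the 87 knockout-labelled Htr2c UMIs, 77 came from 1 nucleus.

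Among the genes lower in knockout-labelled members, several rested on 1 wildtype-labelled nucleus. Grik1, a kainate receptor subunit, had 102 UMIs in 7 wildtype-labelled members (1830 CPM), 57 of them in 1 nucleus, and 77 UMIs in 21 knockout-labelled members (198 CPM). Without that nucleus the wildtype-labelled level was 892 CPM. Pcdh11x had 41 of its 44 wildtype-labelled UMIs in 1 nucleus, and 59.4 CPM without it, below the 121 CPM of knockout-labelled members. Slc24a3, a sodium and calcium exchanger, had 35 UMIs in 9 wildtype-labelled members and 627 against 133 CPM (-2.23, -2.88 to -1.57). Opcml, a cell adhesion protein, had 87 UMIs in 13 members and 1560 against 562 CPM (-1.47, -1.84 to -1.10). Without the 8% of nuclei with the highest doublet scores Opcml stood at -0.74, under 2-fold. The remaining genes with the lowest ratios were Gpc5, Fstl4, E130114P18Rik and Cntn5.

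The genes nearest to the study's subject gave few counts in these nuclei. Cav1 had 0 UMIs in members of both libraries, which allows up to 66.0 and 9.47 CPM. Cav2 had 0 and 11 UMIs and Gm15581 1 and 35 UMIs, 17.9 and 89.8 CPM. In other neuronal nuclei Gm15581 had 3.08 and 91.2 CPM, so the knockout-labelled levels inside and outside the members differed by less than counting error. Of 10 caveolae genes, 4 had no UMI in members and 0 reached 50 UMIs.

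Insulin and energy sensing genes, 29 in number, gave 0 of 6 genes called higher and 0 of 5 called lower than in other neuronal nuclei, where 1.17% and 0.758% of all genes were called, with a median log2 ratio of -0.37 and -0.03 over 15 genes. The insulin receptor gene Insr had 161 and 139 CPM against 139 and 130 CPM. Igf1r, the receptor of insulin-like growth factors, had 340 and 395 CPM against 476 and 463 CPM. Between genotypes 6 of these genes could be compared and 1 was past 2-fold: Rptor, a subunit of the mTOR complex, which had 3 and 61 UMIs. Its log2 ratio of 1.54 (-0.07 to 3.86) did not exceed counting error. Of the 10 imprinted genes compared between genotypes, 0 were 2-fold or more apart and the median log2 ratio was 0.00. Of all genes, 7.52% were 2-fold or more higher and 2.54% lower, so 0 of 10 says little. Peg3, for example, stood at -0.12, with an interval of -0.92 to 0.77 that leaves room for a difference in either direction. Dlk1, under the minimum with 13 UMIs in 5 and 32 UMIs in 14 members, was not compared. Its levels were 233 CPM (124 to 398) and 82.1 CPM (56.2 to 116), intervals that did not overlap. Of the 13 wildtype-labelled UMIs, however, 6 came from 1 nucleus and 4 from another. The intervals do not cover such differences between nuclei.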

How the data were processed

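The deposited matrices hold UMI counts that the authors did not normalise; per the file headers the software was Cell Ranger 6.1.1, while the submitters' processing notes name Cell Ranger 3.0.1, STAR and GRCm39. Whether intronic reads and strand were used is not given in the sources used here. The 7-gene rule, the gene lists and the comparisons were chosen with earlier results of these data known. The unit of analysis was the sum of counts over nuclei within a library, scaled to a total of 1000000 (CPM). Levels carry exact Poisson intervals, shares exact binomial (Clopper-Pearson) intervals and log2 ratios conditional exact binomial intervals, all at 95%. A gene was called at 2-fold or more, with at least 50 UMIs. PCR copies are removed by UMIs, and intervals cover counting error only, since each genotype has 1 library and nuclei are not replicates. A level of 0 was read against a floor of 3 UMIs over the group. The genes named were those of the lists with at least 20 UMIs, the 12 highest and 8 lowest in members by the ratio nearer 0, and the 8 highest and 8 lowest between genotypes by the interval bound nearer 0. Usp29 and genes named with fewer than 20 UMIs (such as Isl1, Tbx3, Tacr1 and Prlr) were chosen after their values were seen.

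Scrublet (in scanpy 1.11.5) marked 0 nuclei per library at its automatic threshold, so doublets were kept and an alternative removed the 8% of highest scores, which held 4 and 11 members. Thinning drew 1000 or 2000 UMIs per nucleus without replacement. Of 55416 features, 98.8% matched GENCODE M39 (GRCm39), used for positions. The calls were tested on simulated data with Python 3.11.15, numpy 2.4.6 and scipy 1.17.1. A few genes of the lists and of the named sets are not reported here.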

Additional observations from a re-analysis of the deposited data

Results flagged for a closer look

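Barcodes outside the filter on detected genes and mitochondrial UMIs were not used for any comparison, yet some carried the same genes. In the knockout-labelled library 6 of 4131 such barcodes (0.145%, exact binomial interval 0.0533% to 0.316%) met the other conditions for a hypothalamic-type neuron, above the 3 counts that a count of 0 allows. In the wildtype-labelled library 0 of 3077 did, which allows up to 0.120%.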

How the results depend on the processing

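No paired analysis was possible because each genotype has 1 library, and for the same reason no library could be left out. The knockout-labelled share of 1.14% became 1.48% with at least 1000 detected genes, 0.629% with at least 3 rule-gene UMIs, 0.808% with an excluding-gene sum of 0 and 0.287% at 1000 UMIs, where the wildtype-labelled share was 0.0514%. The difference of 0.913 points was 0.479 with at least 3 rule-gene UMIs and 0.236 at 1000 UMIs, and the knockout-labelled share was the higher one in each. The 142 genes higher in knockout-labelled members became 89 with 3 rule-gene UMIs, 79 with an excluding-gene sum of 0, 85 among members led by Otp or Sim1, 744 with at least 20 UMIs per gene and 30 with at least 100. The 48 lower genes became 293 and 16 at those minimums. Against other neuronal nuclei, the 22 higher genes became 58 with at least 20 UMIs, 9 with at least 100 and 6 at 1000 UMIs per nucleus, where 189 genes could be compared and 3 of the 22 were among those called. The 14 lower genes became 55, 7 and 9 in the same order, and 23 with an excluding-gene sum of 0. Fewer or more genes passing the minimum of UMIs is part of how these alternatives are built. Fewer of the 22 were called under other choices of members: 9 with 3 rule-gene UMIs (20 called), 12 with an excluding-gene sum of 0 (24 called), 11 among members led by Otp or Sim1 (21 called) and 18 without the highest Scrublet scores (29 called). Of 675 values of single genes, 614 stayed within the interval of the reported value, 58 left it and 3 turned direction: Htr2c between genotypes to -0.68 with 3 rule-gene UMIs and to -0.58 among members led by Otp or Sim1, and Slc17a6 in wildtype-labelled members to -0.15 with 3 rule-gene UMIs. Another 25 had no value because a group held 0 UMIs, among them Sfta3-ps in wildtype-labelled members led by Otp or Sim1 and E130114P18Rik without the highest Scrublet scores. The minimums of 20 and 100 UMIs set which genes are tested and leave the ratio of each gene as it was. Single-gene values under these minimums could not move, yet they are counted in the 614, so that count overstates how stable the values were. The alternatives by leading gene and without the deepest member were added after seeing the data. With 15 members the wildtype-labelled library sets the limit: a gene with 0 UMIs there can still be at up to 66.0 CPM.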

Other observations

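Receptors of hormones and peptides were sparse in the members. Of 27 such genes 6 had no UMI in members, and among the 4 with at least 50 UMIs 0 were called. Of all genes, 1.17% were called higher and 0.758% lower. Tacr1, the receptor of substance P, had 3 UMIs in 2 wildtype-labelled and 11 UMIs in 7 knockout-labelled members, 53.7 CPM (11.1 to 157) and 28.2 CPM (14.1 to 50.5) against 4.52 and 7.41 CPM in other neuronal nuclei. Prlr, the prolactin receptor, had 2 UMIs in wildtype-labelled members (35.8 CPM, 4.34 to 129) and 8 in knockout-labelled members (20.5 CPM, 8.86 to 40.5), with 3.80 and 5.11 CPM in other neuronal nuclei. Both were singled out after their values were seen and rest on few molecules.

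Glial and blood marker lists differed in direction between members and other neuronal nuclei. The radial glia list summed to 734 and 1000 CPM in members against 1410 and 1410 CPM in other neuronal nuclei, the dividing cell list to 197 and 203 against 454 and 403 CPM, and the erythroid list to 537 and 490 against 998 and 836 CPM. The choroid plexus list summed to 286 and 421 against 360 and 386 CPM, and the microglia list to 143 and 105 against 94.1 and 95.5 CPM, with 8 and 41 UMIs in members. The tanycyte and astroglial list (215 and 175 against 146 and 171 CPM) and the oligodendrocyte lineage list (89.5 and 77 against 58.7 and 68.1 CPM) also summed to more in members, on 12 and 68 and on 5 and 30 UMIs. Fibroblast markers had 0 and 9 UMIs in members.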
